A study of Mus musculus with 36 samples.

Results

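The genes described here take a cell through mitosis, from the cyclins and kinases that start it to the proteins that part the daughter cells. They are 35 genes chosen for their known role, with earlier results of these data known. Member counts set beside the shares of all genes are therefore a description and no independent test. A member counted as measured where a probe set of chip A or chip B of the Affymetrix MOE430 array pair carries its symbol and no other. That held for 34 of the 35, with 74 probe sets in all, among 18193 genes measured in the whole series. Ccnb1, the cyclin B1 gene, had no such probe set and has no value here. Each measured member is given by 1 probe set, on chip A for 32 of them and on chip B for Cdca8 and Cenpp. Levels are log2 values, so a difference of 1 is a change of 2-fold, and a level is compared between libraries for the same probe set. Different genes are set beside each other by level only as a rough description, for marker lists and for probe sets with low values.

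The cells were fibroblasts from tendon, skin and cornea of fetuses of the outbred mouse stock CD1, taken 19 days after conception. They went through 5 population doublings in medium with 15% fetal calf serum and were then left to adhere to glass coated with gelatin for about 7 h. The plates of the static groups then stayed 14 h under still medium, and those of the flow groups 14 h in a parallel plate chamber at a wall shear stress of 0.1 dyn/cm2. Medium in both states held 2% serum during these hours, so the step down from 15% is shared by all 6 groups. Each tissue and state has 3 libraries, 18 in all, each hybridised to both chips (36 arrays). The cultures are primary cells, and the labels name no transgene. They speak of the fetuses of a mated mouse without saying whether replicates came from separate litters, so each p-value covers the spread among these cultures alone, which may be technical.

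In dividing cells, cyclin A and cyclin B activate the kinase Cdk1, which drives entry into mitosis, and further kinases of the Aurora and Polo families build the spindle. The kinetochore ties each chromosome to the spindle, and the spindle checkpoint holds back the anaphase promoting complex until every chromosome is attached. That complex then marks cyclins and other proteins for destruction, the chromatids part, and the central spindle and contractile ring divide the cell body. Transcripts of these genes rise together in the G2 phase and mitosis and are low in resting cells, so their summed level in a culture is widely read as a sign of how many of its cells divide. In such bulk RNA, fewer dividing cells and less of these transcripts per dividing cell cannot be told apart. Fibroblasts in culture divide when serum is plentiful and slow down when it is withdrawn.

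The list of fibroblast markers had a high mean in every library, and markers of the 3 tissues set these tissues apart in part. The mean of 9 fibroblast markers lay between 11.82 and 12.34 in every library, while the means of the marker lists of epithelium, endothelium, leukocytes, muscle, Schwann cells and melanocytes, and cartilage lay between 5.35 and 7.44. Single markers overlapped between lists. By percentile of mean level on their chip, the fibroblast markers ran from 56.1 to 99.97 (median 99.2). Leukocyte and macrophage markers reached 72.4 and endothelial ones 67.0. These values come without a detection call, so no marker could be called absent. The means of the 6 tendon marker genes were 8.25 to 8.73 in tendon, 7.28 to 7.87 in skin and up to 8.31 in cornea, so tendon stood apart from skin and overlapped with cornea. The 6 dermal ones were highest in skin (9.28 to 9.52 against 7.66 to 9.14), whereas the 5 markers of corneal stroma overlapped between cornea and tendon (6.95 to 7.34 and 6.76 to 7.22). The description of the 6 tendon flow arrays names cornea, whereas title, source and scan record of each say tendon, and their dermal means (8.77 to 9.03) lay outside the corneal range (7.66 to 8.31). Their tendon means (8.25 to 8.60) and corneal means (6.76 to 6.98) overlapped with those of cornea under flow (7.43 to 8.31 and 6.95 to 7.33), so only the dermal list set these arrays apart from cornea. In the scan records, scan batch 1 holds replicate 1 of tendon and of skin in both states and cornea flow 1 (5 libraries), and batch 2 holds the other 13. By the dates noted there, and by the shared session for the replicate 1 libraries of tendon and skin, there are 8 pairs of a static and a flow library, and cornea static 2 and cornea flow 1 have no partner.

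The mean level of the mitosis genes was lower under flow in every tissue, highest in cornea and lowest in skin. Averaged over the 34 members, the deviation of a library from the members' 18-library means was 0.19 ± 0.42 in static tendon and -0.29 ± 0.40 in tendon under flow (mean ± SD, n = 3, log2). It was 0.95 ± 0.70 in static cornea and 0.27 ± 0.40 in cornea under flow. In skin it was -0.39 ± 0.04 in static medium and -0.74 ± 0.09 under flow. The static and flow libraries of tendon overlapped, with ranges of -0.20 to 0.64 and -0.68 to 0.11, as did those of cornea (0.30 to 1.69 and -0.02 to 0.73). Those of skin did not overlap, with ranges of -0.43 to -0.34 and -0.81 to -0.63. Cornea static 1 was the highest library at 1.69, and the cornea static libraries spread more than those of any other group.

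**Figure D1:**
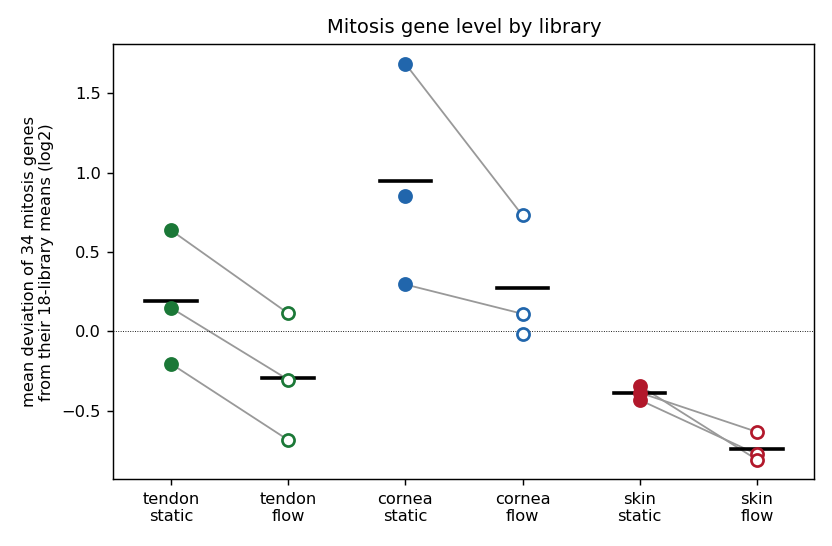
Mean deviation of the 34 mitosis genes from their 18-library means (log2) for each library, by tissue and state. Filled points are static libraries, open points flow libraries, black bars group means of 3 libraries, and grey lines join the 8 static and flow libraries paired in the scan records. Each line falls from static to flow, and cornea static 1 is highest at 1.69.

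Within this general order the members varied together. In static medium 32 of the 34 members had their highest mean in cornea, then tendon, then skin, and the same order held for 32 under flow. The group with the highest mean of all 6 was static cornea for 32 members, and the lowest was skin under flow for 33. Cornea under flow lay above static skin for 32 members and above static tendon for 20. Foxm1, the transcription factor that switches on many genes of this set, and Kif2c, a kinesin that takes microtubules apart, were the exceptions to the tissue order, and their representative probe sets varied little. Foxm1 ranged from 7.81 to 8.39 over the 18 libraries and Kif2c from 7.48 to 8.22. The other 3 probe sets of Kif2c gave -0.11, 0.57 and 2.08 for static cornea minus static skin and -0.16, -0.23 and -0.69 for the average of flow minus static. Those of Foxm1 gave 0.20, -0.19 and 0.27, and -0.15, -0.08 and -0.16. None of these 6 probe sets passed in either comparison.

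**Figure D2:**
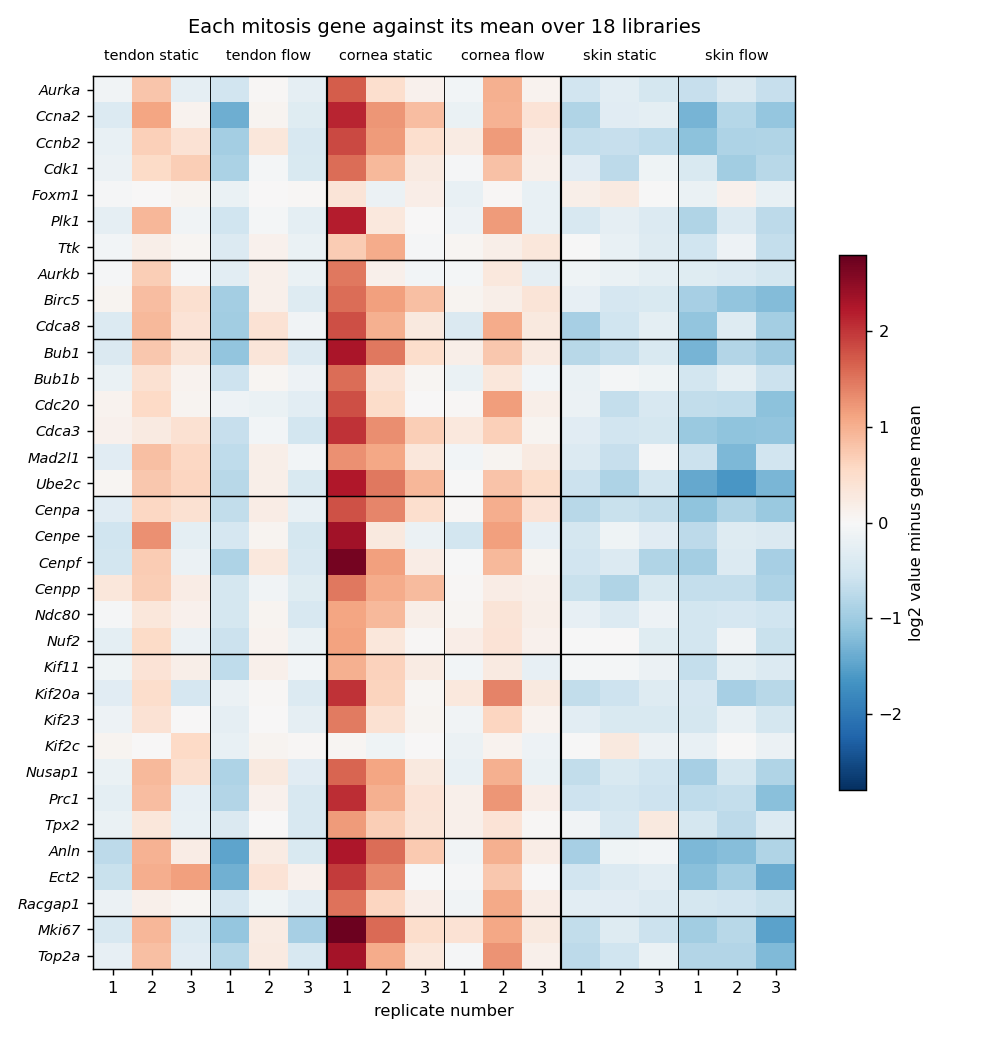
Log2 value of each member minus its mean over 18 libraries, with genes in rows grouped by role and libraries in columns by tissue, state and replicate number. Red is above and blue below the gene's mean, and most rows are darkest red in cornea static 1 and blue in skin under flow.

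Flow and static cultures were compared first as the average of the 3 tissue responses. All 34 members were lower under flow in tendon, in cornea and in skin, with medians of -0.46, -0.65 and -0.29, and the median of their average was -0.48. Over all 18193 genes the median average change was -0.01, and 53.9% were lower. Differences are given ± their SE from the fit without pairs unless stated. Of the 34, 4 fell at an adjusted p below 0.05 in the fit without pairs and 0 rose. The 4 were Birc5, the survivin gene, Ube2c, the gene of a ubiquitin-conjugating enzyme, Cdca3 and Cenpp, a centromere protein gene. Of all genes 0.264% were called lower in that comparison (48 of 18193). These 4 kept the call with each of the 18 libraries left out in turn. With the pairs of the scan records as a block, which used 8 pairs and left 5 residual degrees of freedom, and in which the 2 unpaired libraries carry no weight, 26 of the 34 fell (2.31% of all genes called lower), the 4 among them. When beta-actin's 3' to 5' difference, which reads RNA integrity, was added to that fit, 18 of the 26 fell. The 8 of the 34 members that did not pass in the paired fit without this covariate were Aurka, Cenpe, Cenpf, Kif20a, Kif23, Kif2c, Nuf2 and Ttk.

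The pairs showed the same direction in most members. Between 26 and 33 of the 34 were lower under flow in each pair, fewest in cornea flow 3 against static 3 (median -0.14) and with the largest median in cornea flow 2 against static 1 (-0.84). In that latter pair the arrays were hybridised in different runs, so flow and run cannot be told apart there. Lower in all 8 pairs were 20 of the 34 members, against a background of 2.39% of all genes. Cenpp was lower in 7 of the 8 pairs. At least 7 of 8 pairs were lower for 30 members, against 9.95% of all genes. Kif20a, lower in 4 pairs, Kif2c, lower in 5, and Kif23 and Ttk, lower in 6 each, made up the rest.

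**Figure D3:**
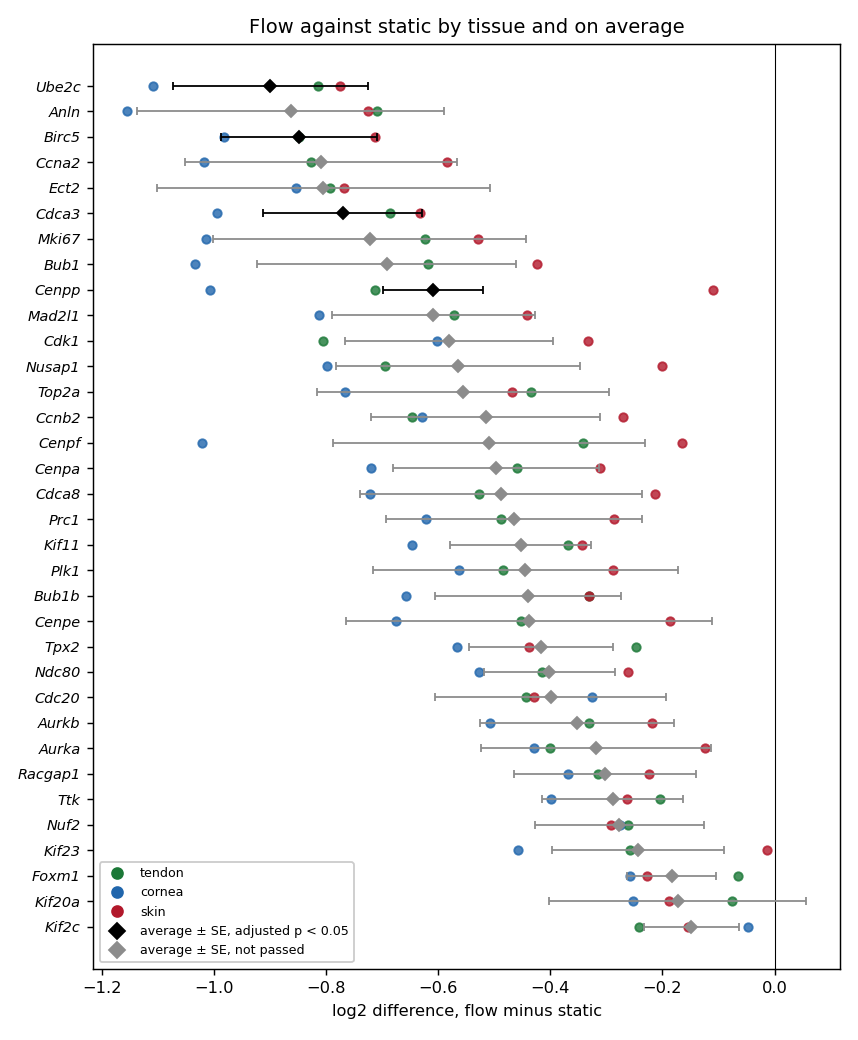
Log2 difference of flow minus static for each member, sorted by the average. Coloured points are the 3 tissues and diamonds the average ± SE of the fit without pairs, black where the adjusted p was below 0.05. Every point lies below 0, and Ube2c has the lowest average at -0.90.

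As the members varied together, their promoters were read for the elements that the DREAM and MuvB complexes and the factor NF-Y use in cell cycle genes: the CCAAT box, and the cell cycle homology region (CHR), searched as TTTGAA and TTCGAA. Both strands of the 250 bases before the start were searched in the RefSeq promoters of GRCm38.p6, which hold 30 of the 35 members (Aurkb, Ccna2, Foxm1, Kif20a and Tpx2 are not among them). A CCAAT box was found in 22 of the 30 (73.3%) and in 34.5% of the promoters of all 27025 genes listed. At least 2 boxes were found in 15 (50% against 10.5%), a CHR in 10 (33.3% against 17.4%) and both elements in 9 (30% against 6.21%). No CCAAT and CHR match overlapped in the members, and CCAAT matches that overlap each other were counted apart. The 120 bases before the start of 6 members are shown 5′ to 3′ on the strand of the gene, for the 4 that fell without pairs and for 2 called in the paired fit, with matches in capitals (ATTGG and TTCAAA are matches on the other strand).
Ube2c, chr2:164769809-164769928, plus strand: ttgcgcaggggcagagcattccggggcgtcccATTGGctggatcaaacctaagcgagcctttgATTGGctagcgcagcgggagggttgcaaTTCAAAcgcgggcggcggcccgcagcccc
Cdca3, chr6:124830056-124830175, plus strand: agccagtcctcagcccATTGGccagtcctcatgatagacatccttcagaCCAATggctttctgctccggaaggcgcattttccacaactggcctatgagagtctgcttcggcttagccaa
Birc5, chr11:117849117-117849236, plus strand: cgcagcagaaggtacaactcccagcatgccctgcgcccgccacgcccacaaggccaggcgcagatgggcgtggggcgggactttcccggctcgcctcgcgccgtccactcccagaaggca
Cenpp, chr13:49652732-49652851, minus strand: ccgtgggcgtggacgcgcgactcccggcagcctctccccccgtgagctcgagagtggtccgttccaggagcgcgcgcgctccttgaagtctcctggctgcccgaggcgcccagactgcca
Ccnb2, chr9:70421555-70421674, minus strand: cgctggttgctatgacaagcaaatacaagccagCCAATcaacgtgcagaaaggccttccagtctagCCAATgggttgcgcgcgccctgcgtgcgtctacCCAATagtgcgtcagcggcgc
Cdk1, chr10:69352913-69353032, minus strand: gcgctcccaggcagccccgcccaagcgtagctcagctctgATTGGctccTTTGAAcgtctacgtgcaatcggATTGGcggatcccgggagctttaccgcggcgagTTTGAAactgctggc

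The 6 promoters were not alike in these letters. That of Ube2c held 6 CCAAT matches in the 250 bases, of which those at 186 and 183 bases before the start overlap each other. In the window shown it held CCAAT boxes at 88 and 57 and a CHR at 29. That of Cdca3 held 2 CCAAT boxes at 104 and 71 and no CHR. Those of Birc5 and Cenpp held no match to either in these 250 bases. Ccnb2 had 3 boxes at 87, 54 and 21 and a CHR at 167, before the window shown. Cdk1 had boxes at 80 and 48 in the window and at 208 before it, with CHR matches at 71 and 15. Ccnb2 and Cdk1 are examples that hold both elements, as 9 of the 30 members do. Anln, Nusap1, Mad2l1 and Ndc80, also called in the paired fit, held no match to either. A match describes letters in a window and no binding was measured.

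The chromosomal passenger complex, which corrects faulty attachments of chromosomes and later guides cleavage, is represented by survivin (Birc5), borealin (Cdca8) and its kinase (Aurkb). In tendon, Birc5 was at 8.34, 9.13 and 8.72 in static libraries 1 to 3 and at 7.33, 8.41 and 7.91 under flow. In cornea, Birc5 was at 9.83, 9.41 and 9.12 in static medium and at 8.35, 8.44 and 8.62 under flow. In skin, Birc5 was at 8.05, 7.81 and 7.85 in static medium and at 7.35, 7.17 and 7.05 under flow. All 3 corneal and all 3 skin libraries were lower under flow than any static one, while the tendon ranges overlapped (tendon flow 2 lay above static 1). Birc5 fell by 0.85 on average (SE 0.14, 1.80-fold, limma adjusted p = 0.0066; 0.00020 in the paired fit). Cdca8 measured 9.47, 10.76 and 10.25 in static tendon and 8.89, 10.26 and 9.76 in tendon under flow. It measured 11.66, 10.85 and 10.13 in static cornea and 9.44, 10.90 and 10.13 in cornea under flow, and 8.92, 9.30 and 9.58 in static skin and 8.75, 9.51 and 8.90 in skin under flow. The ranges of Cdca8 overlapped in all 3 tissues, and its average difference of -0.49 ± 0.25 passed only in the paired fit (limma adjusted p = 0.50 without pairs, 0.039 with them). Aurkb measured 4.504, 5.22 and 4.502 in static tendon and 4.23, 4.67 and 4.34 in tendon under flow. It measured 6.01, 4.66 and 4.45 in static cornea and 4.48, 4.83 and 4.28 in cornea under flow, and 4.42, 4.34 and 4.26 in static skin and 4.18, 4.16 and 4.03 in skin under flow. Skin was the tissue in which Aurkb did not overlap, and its average of -0.35 ± 0.17 likewise passed only with the pairs (adjusted p = 0.47 and 0.025). This Aurkb probe set had a low signal, with 3.97% of the genes on its chip at a lower mean. The other Aurkb probe set gave an average of -0.41, which did not pass.

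Ube2c hands ubiquitin to the anaphase promoting complex, Cdca3 takes part in the destruction of the mitosis inhibitor Wee1, and Bub1, Bub1b and Mad2l1 act in the spindle checkpoint that restrains the complex's activator Cdc20. In tendon, Ube2c was at 8.34, 9.03 and 8.89 in static libraries 1 to 3 and at 7.51, 8.44 and 7.86 under flow. In cornea, Ube2c was at 10.52, 9.75 and 9.20 in static medium and at 8.27, 9.09 and 8.79 under flow. In skin, Ube2c was at 7.67, 7.41 and 7.75 in static medium and at 6.84, 6.66 and 7.01 under flow. In cornea and skin the flow libraries lay below all static ones, and in tendon flow 2 lay above static 1. Ube2c had the largest average decrease of the 34 and fell by 0.90 (SE 0.17, 1.87-fold, limma adjusted p = 0.019; 0.00044 in the paired fit). In tendon, Cdca3 was at 7.44, 7.58 and 7.75 in static libraries 1 to 3 and at 6.68, 7.24 and 6.80 under flow. In cornea, Cdca3 was at 9.35, 8.63 and 8.003 in static medium and at 7.61, 7.99 and 7.40 under flow. In skin, Cdca3 was at 7.00, 6.78 and 6.82 in static medium and at 6.29, 6.20 and 6.21 under flow. Cdca3 was the member whose flow libraries lay below the static ones in all 3 tissues. It fell by 0.77 on average (SE 0.14, 1.71-fold, limma adjusted p = 0.015; 0.00050 in the paired fit). Its other probe sets gave average differences of -0.12 and -0.12, which did not pass. Bub1 measured 6.62, 7.77 and 7.37 in static tendon and 5.91, 7.36 and 6.63 in tendon under flow. It measured 9.31, 8.49 and 7.52 in static cornea and 7.17, 7.77 and 7.27 in cornea under flow, and 6.25, 6.36 and 6.59 in static skin and 5.71, 6.19 and 6.03 in skin under flow. For Bub1 the states overlapped in tendon and cornea and stood apart in skin, with an average of -0.69 ± 0.23 (limma adjusted p = 0.22 without pairs, 0.0067 with them). Among the rest, Mad2l1 averaged -0.61, Bub1b -0.44 and Cdc20 -0.40, and each passed in the paired fit (adjusted p = 0.0090, 0.018 and 0.042) and not without pairs (0.15, 0.29 and 0.50).

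**Figure D4:**
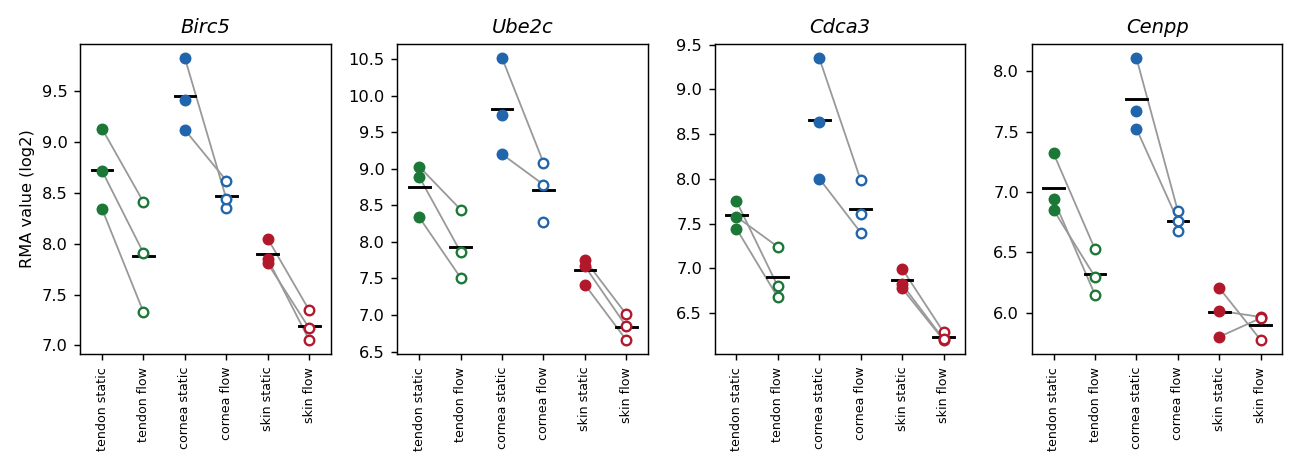
Log2 RMA value of the 4 members called lower under flow without pairs, in each library by tissue and state. Filled points are static and open points flow libraries, black bars are means of 3 and grey lines join pairs of the scan records. The vertical axes do not start at 0 and differ between panels, and the skin libraries of Cenpp overlap.

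Among the kinetochore and centromere genes, Cenpa encodes the histone H3 variant that marks the centromere, Cenpf and Cenpe proteins of the outer kinetochore, Ndc80 and Nuf2 the microtubule-binding complex, and Cenpp a subunit of the inner, constitutive network. In tendon, Cenpp was at 6.94, 7.32 and 6.85 in static libraries 1 to 3 and at 6.15, 6.52 and 6.30 under flow. In cornea, Cenpp was at 8.11, 7.67 and 7.52 in static medium and at 6.67, 6.84 and 6.76 under flow. In skin, Cenpp was at 6.02, 5.80 and 6.20 in static medium and at 5.96, 5.95 and 5.77 under flow. The states did not overlap in tendon and cornea, whereas in skin they overlapped (flow 1 and flow 2 lay above static 2). Cenpp fell by 0.61 on average (SE 0.09, 1.53-fold, limma adjusted p = 0.0021; 0.00090 in the paired fit). Cenpf measured 7.57, 8.79 and 7.91 in static tendon and 7.22, 8.38 and 7.65 in tendon under flow. It measured 10.78, 9.25 and 8.29 in static cornea and 8.08, 8.996 and 8.17 in cornea under flow, and 7.56, 7.70 and 7.24 in static skin and 7.13, 7.71 and 7.17 in skin under flow. Cenpf averaged -0.51 ± 0.28 with overlap in every tissue and passed in neither fit (limma adjusted p = 0.53 and 0.053). Cenpa measured 7.20, 8.09 and 7.94 in static tendon and 6.83, 7.72 and 7.30 in tendon under flow. It measured 9.28, 8.88 and 7.97 in static cornea and 7.54, 8.52 and 7.90 in cornea under flow, and 6.72, 6.89 and 6.83 in static skin and 6.37, 6.66 and 6.47 in skin under flow. Cenpa averaged -0.50 ± 0.18, with skin the tissue without overlap, and passed with the pairs (adjusted p = 0.011) and not without them (0.28). Ndc80 averaged -0.40, Cenpe -0.44 and Nuf2 -0.28, of which Ndc80 alone passed in the paired fit (adjusted p = 0.027). The Cenpe probe set had a low signal, with 2.20% of the genes on its chip at a lower mean. The other Cenpe probe set gave an average of -0.51, which did not pass.

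Cenpp shares its stretch of the genome with small leucine-rich proteoglycan genes: in the RefSeq gene table its span holds Ecm2, Aspn, Omd and Ogn, with Ippk and Nol8 beside it. None of these 6 genes passed for flow. Ogn averaged -0.87 ± 0.38 (limma adjusted p = 0.39), Aspn -0.28 ± 0.44, Omd -0.12 ± 0.10 and Ecm2 0.05 ± 0.05. Over the 18 libraries, which share tissues and states, the Cenpp probe set used here correlated at r = 0.95 with Birc5 and Ube2c and at 0.94 with Cdca3, against 0.57 with Ogn and -0.48 with Aspn. Another Cenpp probe set followed the same genes (0.91 with Birc5, 0.92 with Ube2c) and gave an average flow difference of -0.47 that did not pass. The remaining probe set did not follow them (-0.47 with Birc5) and gave 0.043.

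The cyclins A2 and B2 (Ccna2, Ccnb2), the kinase they activate (Cdk1), the Polo and Aurora A kinases (Plk1, Aurka), the checkpoint kinase Ttk and Foxm1 form the group that starts mitosis. Ccna2 measured 8.56, 10.05 and 9.05 in static tendon and 7.57, 9.004 and 8.59 in tendon under flow. It measured 11.08, 10.16 and 9.80 in static cornea and 8.75, 9.92 and 9.32 in cornea under flow, and 8.10, 8.62 and 8.68 in static skin and 7.64, 8.14 and 7.86 in skin under flow. The states overlapped in each tissue, but Ccna2 was lower under flow in all 8 pairs, and its average of -0.81 ± 0.24 passed with the pairs (limma adjusted p = 0.00072) and not without them (0.16). Cdk1 measured 9.18, 9.88 and 10.03 in static tendon and 8.46, 9.29 and 8.92 in tendon under flow. It measured 10.91, 10.27 and 9.61 in static cornea and 9.32, 10.17 and 9.50 in cornea under flow, and 9.04, 8.63 and 9.24 in static skin and 8.93, 8.39 and 8.58 in skin under flow. Cdk1 also overlapped in each tissue and averaged -0.58 ± 0.19 (adjusted p = 0.19, and 0.0060 in the paired fit). Ccnb2 measured 7.40, 8.28 and 8.02 in static tendon and 6.65, 7.94 and 7.17 in tendon under flow. It measured 9.45, 8.80 and 8.09 in static cornea and 7.84, 8.81 and 7.80 in cornea under flow, and 6.94, 6.97 and 6.89 in static skin and 6.46, 6.76 and 6.77 in skin under flow. Ccnb2 did not overlap in skin and averaged -0.52 ± 0.20 (adjusted p = 0.33, and 0.0043 in the paired fit). Plk1 (-0.44) and Foxm1 (-0.18) passed in the paired fit as well, where Foxm1 had the smallest decrease of the 26 (-0.22). Aurka (-0.32) and Ttk (-0.29) passed in neither.

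Of the spindle genes, Nusap1 encodes a protein that bundles spindle microtubules, Prc1 a crosslinker of the central spindle, Kif11 the motor that pushes the poles apart and Tpx2 the activator of Aurora A. Nusap1 measured 7.69, 8.78 and 8.33 in static tendon and 7.00, 8.15 and 7.56 in tendon under flow. It measured 9.50, 8.98 and 8.14 in static cornea and 7.66, 8.87 and 7.69 in cornea under flow, and 7.19, 7.45 and 7.32 in static skin and 6.94, 7.39 and 7.03 in skin under flow. Nusap1 had the largest average decrease of this group, -0.56 ± 0.22, with overlap in each tissue, and passed in the paired fit (limma adjusted p = 0.00072) and not without pairs (0.31). Prc1 measured 8.91, 10.05 and 8.96 in static tendon and 8.38, 9.32 and 8.75 in tendon under flow. It measured 11.25, 10.19 and 9.57 in static cornea and 9.34, 10.43 and 9.38 in cornea under flow, and 8.60, 8.68 and 8.61 in static skin and 8.49, 8.52 and 8.03 in skin under flow. Prc1 averaged -0.47 ± 0.23, with no overlap in skin (adjusted p = 0.47, and 0.014 in the paired fit). Kif11 measured 6.61, 7.11 and 6.89 in static tendon and 6.00, 6.86 and 6.64 in tendon under flow. It measured 7.72, 7.36 and 6.96 in static cornea and 6.64, 6.96 and 6.50 in cornea under flow, and 6.66, 6.67 and 6.55 in static skin and 6.05, 6.46 and 6.35 in skin under flow. Kif11 averaged -0.45 ± 0.13, again with no overlap in skin (adjusted p = 0.13, and 0.0047 in the paired fit). Tpx2 averaged -0.42 and passed with the pairs. The kinesins of the late spindle and midzone, Kif20a (-0.17) and Kif23 (-0.24), and Kif2c (-0.15) passed in neither fit.

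Cytokinesis is driven by Ect2 and Racgap1, which switch on the GTPase RhoA at the cell's equator, and by anillin (Anln), the scaffold of the contractile ring. Anln measured 7.30, 9.004 and 8.24 in static tendon and 6.55, 8.26 and 7.605 in tendon under flow. It measured 10.31, 9.60 and 8.78 in static cornea and 7.93, 9.04 and 8.25 in cornea under flow, and 7.11, 7.92 and 7.95 in static skin and 6.77, 6.85 and 7.18 in skin under flow. Anln overlapped in each tissue, averaged -0.86 ± 0.27, was lower in all 8 pairs and passed with them (limma adjusted p = 0.18, and 0.00056 in the paired fit). Ect2 measured 7.00, 8.63 and 8.75 in static tendon and 6.26, 8.004 and 7.73 in tendon under flow. It measured 9.56, 8.96 and 7.59 in static cornea and 7.57, 8.36 and 7.62 in cornea under flow, and 7.07, 7.23 and 7.32 in static skin and 6.43, 6.67 and 6.22 in skin under flow. Ect2 averaged -0.81 ± 0.30 with no overlap in skin (adjusted p = 0.28, and 0.0039 in the paired fit). Racgap1 measured 7.72, 8.02 and 7.94 in static tendon and 7.40, 7.77 and 7.58 in tendon under flow. It measured 9.39, 8.48 and 8.06 in static cornea and 7.79, 8.94 and 8.09 in cornea under flow, and 7.59, 7.56 and 7.51 in static skin and 7.39, 7.33 and 7.26 in skin under flow. Racgap1 did not overlap in skin, averaged -0.30 ± 0.16 and passed with the pairs alone (adjusted p = 0.52 and 0.038).

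Mki67 encodes the antigen Ki-67, a coat of mitotic chromosomes that is a standard label of dividing cells, and Top2a the topoisomerase that untangles sister chromatids. Mki67 measured 7.72, 9.10 and 7.78 in static tendon and 7.09, 8.41 and 7.24 in tendon under flow. It measured 10.90, 9.75 and 8.65 in static cornea and 8.57, 9.25 and 8.45 in cornea under flow, and 7.48, 7.80 and 7.57 in static skin and 7.19, 7.39 and 6.67 in skin under flow. Mki67 averaged -0.72 ± 0.28, with no overlap in skin (limma adjusted p = 0.31, and 0.0078 in the paired fit). Top2a measured 8.23, 9.30 and 8.14 in static tendon and 7.66, 8.71 and 8.002 in tendon under flow. It measured 10.79, 9.50 and 8.75 in static cornea and 8.43, 9.71 and 8.60 in cornea under flow, and 7.73, 7.90 and 8.28 in static skin and 7.64, 7.63 and 7.23 in skin under flow. Top2a averaged -0.56 ± 0.26, again with skin as the tissue without overlap (adjusted p = 0.44, and 0.025 in the paired fit). Both were lower under flow in all 8 pairs.

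Taken tissue by tissue, few members passed. In tendon 0 of 34 were called without pairs (0.0055% of all genes called lower, and 0.0605% in either direction), and 5 had an unadjusted p below 0.05: Cenpp, Birc5, Cdca3, Ube2c and Cdk1. That unadjusted threshold was passed by 4.36% of all genes in tendon, in either direction. With the pairs 9 fell in tendon, against 0.506% of all genes. They were Birc5, Ube2c, Cdca3, Cenpp, Ccna2, Ccnb2, Cdk1, Nusap1 and Anln, with the smallest adjusted p for Nusap1 (0.0039). In cornea 1 fell without pairs, Cenpp by 1.01 (SE 0.15, 2.01-fold, limma adjusted p = 0.030), and it was the 1 gene of all 18193 called lower (0.0055%, and 0.0220% in either direction). That call was lost without tendon flow 3, cornea static 1 or 2, cornea flow 1, 2 or 3, skin static 1 or skin flow 1, and with the replicate number, the scan batch or the hybridisation run as a block. With the 2 corneal pairs Birc5, Cdca3 and Cenpp fell (0.0495% of all genes). In skin 0 members passed in either of these fits (0% of all genes called lower and 0.0275% in either direction without pairs, 0.104% called lower with them). Without pairs 3 had an unadjusted p below 0.05, against 3.01% of all genes in either direction. With the pairs the smallest adjusted p was 0.057, for Birc5.

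The number of members whose states stood apart differed between tissues. In skin all 3 flow libraries lay below all 3 static ones for 16 members, against 3.73% of all genes. Skin also had the smallest median response (-0.29) and the least spread between libraries. The SD of the members' mean deviation was 0.04 and 0.09 in skin and 0.40 to 0.70 in the other groups. In tendon this held for 3 members (Cdca3, Cdc20 and Cenpp; 3.33% of all genes) and in cornea for 5 (Birc5, Ube2c, Cdca3, Mad2l1 and Cenpp; 4.43%). Within scan batch 1 the tendon pair had 32 and the skin pair 33 of 34 members lower under flow. Within batch 2 the members' medians were -0.50 in tendon, -0.49 in cornea, -0.28 in skin and -0.41 on average, and 34, 33, 33 and 34 members were lower.

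Whether the tissues responded differently was tested as the interaction of tissue and flow. Of the 34 members 0 passed, with or without pairs, and 1 had an unadjusted p below 0.05 without them; of all genes 0% were called (limma, 0 of 18193, with 142 at an unadjusted p below 0.05). That member was Cenpp, with an unadjusted p of 0.0025 (adjusted p = 1.00). Its response in skin was -0.11 against -1.01 in cornea and -0.71 in tendon. With the pairs, Cenpp (limma unadjusted p = 0.0013) and Nusap1 (0.0090) were below 0.05, as were 522 of all 18193 genes. The 95% interval of the cornea response minus the skin response ran from -1.36 to -0.44 for Cenpp, and from -0.99 to 0.45 for Birc5, from -1.24 to 0.57 for Ube2c and from -1.10 to 0.38 for Cdca3. For the other 33 members the interval of cornea minus skin held 0. That of tendon minus skin ran from -1.06 to -0.14 for Cenpp and held 0 for the other 33. The median width of these intervals was 1.92 on the log2 scale (0.82 to 3.39), against a median average response of -0.48. In sign, the response was more negative in cornea than in skin for 31 of the 34 members (median difference -0.32), against 47.0% of all genes. The members varied together, so their count is no separate evidence of a difference. By pairs, the members' medians were -0.84 and -0.14 in cornea and -0.33, -0.21 and -0.43 in skin. The corneal pair at -0.84 was hybridised in different runs.

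Measures of RNA integrity and of other cell types were set beside the flow result. The 3' to 5' difference of the beta-actin control probe sets lay between 0.64 and 1.44 in the static libraries and between 0.74 and 1.75 in the flow libraries. It was higher under flow in 7 of the 8 pairs (median 0.26, from -0.31 to 0.97), and that of the GAPDH probe sets in 5 of 8 (median 0.06). With the beta-actin difference as a covariate in the fit without pairs the same 4 members were called, with averages of -0.85 for Birc5, -0.82 for Cdca3, -0.58 for Cenpp and -0.90 for Ube2c. In the paired fit this covariate, a setting chosen after seeing the data, left 18 of the 26 members called, against 2.38% of all genes, with the 4 among them. The 8 that lost the call were Aurkb, Cdc20, Cdca8, Foxm1, Plk1, Prc1, Racgap1 and Top2a. Marker lists of other cell types had median average changes between -0.09 and 0.00, with 0 genes called, and the list of fibroblast markers had -0.05, also with 0 called. The list of corneal stroma had -0.15, with 1 gene called. The part of these cell types in the result was not tested.

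Other genes of cell division outside the 34 were examined as lists. Of 13 further genes of Cdk1 control 12 were lower under flow in sign (median -0.21), of 30 kinetochore and centromere genes 27 (-0.20), of 25 genes of the checkpoint and the anaphase promoting complex 15 (-0.04), of 20 condensin, cohesin and separase genes 16 (-0.30), of 23 spindle genes 20 (-0.26) and of 8 cytokinesis genes 6 (-0.13). In each of these lists 0 genes passed without pairs in either direction. Those with the smallest p-values were Fam83d, which brings a kinase to the spindle (-0.42 ± 0.10, limma adjusted p = 0.082), Shcbp1, a partner of the central spindle proteins (-0.79 ± 0.20, 0.082), and Cenpw of the inner kinetochore (-0.47 ± 0.12, 0.096). Of 33 genes of S phase and DNA replication 32 were lower (median -0.30) and 1 fell, the thymidine kinase gene Tk1.

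Tk1 measured 8.53, 9.63 and 9.15 in static tendon and 7.57, 8.67 and 8.17 in tendon under flow. It measured 10.77, 10.21 and 9.42 in static cornea and 8.82, 9.79 and 8.87 in cornea under flow, and 8.32, 8.21 and 8.24 in static skin and 7.596, 7.69 and 7.12 in skin under flow. Tk1 fell by 0.91 on average (SE 0.21, 1.88-fold, limma adjusted p = 0.047), with no overlap in skin, and like Birc5 and Ube2c it was highest in cornea static 1.

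The static cultures of the tissues were then compared with each other. Static cornea stood above static skin in 32 of 34 members, with a median difference of 1.37, against a median of -0.03 over all genes. Of the members 16 were higher at an adjusted p below 0.05 and 0 lower, against 1.36% of all genes called higher (247 of 18193). The largest differences were those of Ube2c (2.21 ± 0.30, 4.63-fold, limma adjusted p = 0.00042), Mki67 (2.16 ± 0.48, 4.46-fold, 0.023) and Bub1 (2.04 ± 0.40, 4.12-fold, 0.0094), whose other probe set gave 0.041. By their values above, the static corneal libraries of these 3 genes all lay above the static skin libraries, and cornea static 1 was the highest library for each. No overlap held for 30 of the 34 members, against 6.47% of all genes.

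By role, the higher members in static cornea were spread over every group. They were 3 of 7 cyclins, kinases and regulators (Ccnb2 1.85 ± 0.35, Ccna2 1.88 ± 0.42 and Cdk1 1.297 ± 0.32), 1 of 3 of the passenger complex (Birc5 1.55 ± 0.24) and 4 of 6 of the checkpoint and anaphase promoting complex (Ube2c, Cdca3, Bub1 and Mad2l1). They were also 4 of 6 of the kinetochore (Cenpp 1.76 ± 0.15, Cenpa 1.90 ± 0.32, Cenpf 1.94 ± 0.48 and Ndc80 0.97 ± 0.20), 2 of 7 of the spindle (Prc1 and Nusap1), 1 of 3 of cytokinesis (Anln) and 1 of 2 chromosome genes (Mki67). Of the 16, 9 have other probe sets, 13 in all, and 9 of these gave differences under 0.2 in size. They belong to Cdca3 (-0.052 and -0.16), Cenpf (-0.035 and -0.0031), Cenpa (0.015 and 0.13), Bub1 (0.041), Nusap1 (0.15) and Cenpp (-0.13). The other 4, of Anln, Ccna2, Prc1 and Cenpp, gave 0.49 to 1.57, with 1.28 for Cenpp. Among members not called, other probe sets passed for Bub1b (1.85), Cenpe (1.72) and Racgap1 (1.55). In the fit of all probe sets their limma adjusted p was 0.020, 0.014 and 0.025. In that same fit the probe sets used for Anln, Cenpf and Mad2l1 lost their calls (limma adjusted p = 0.0513, 0.05001 and 0.0519). Of all 35041 probe sets 398 were called higher. The count of 16 rested on single libraries: it was 7 without cornea static 1, 7 without cornea static 2, 27 without cornea static 3, 6 without skin static 1, 9 without skin static 2 and 9 without skin static 3. Birc5, Ccnb2, Cdca3, Cenpa, Cenpp and Ube2c passed in each of these refits. Within scan batch 2, which holds all static corneal libraries, 33 members were higher in cornea (median 1.35).

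**Figure D5:**
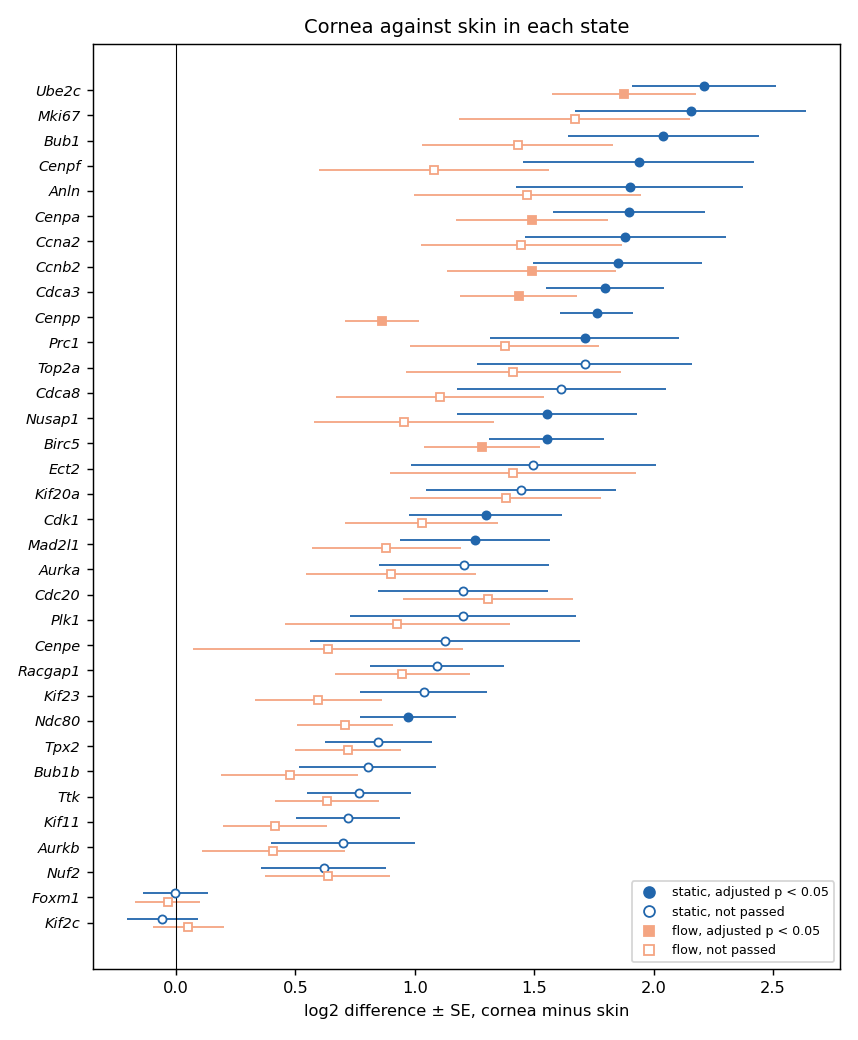
Log2 difference ± SE of cornea minus skin for each member, in static medium (circles) and under flow (squares), sorted by the static difference. Filled symbols passed at an adjusted p below 0.05, which held for 16 members in static medium and 6 under flow, and Foxm1 and Kif2c lie at about 0.

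Static tendon lay between cornea and skin. It was above skin in 33 of 34 members (median 0.59), and 1 passed, Cenpp at 1.03 ± 0.15 (limma adjusted p = 0.0013), against 0.583% of all genes called higher. The 3 static tendon libraries lay above the 3 of skin for 15 members, against 5.1% of all genes. Static tendon was below cornea in 33 (median -0.69), and 2 passed, Cdca3 at -1.07 ± 0.25 (adjusted p = 0.027) and Cenpp at -0.73 ± 0.15 (0.013), against 1.35% of all genes called lower. No overlap held for 5 members, against 6.68% of all genes. That count of 2 became 0 without tendon static 1, without tendon static 3 or without cornea static 1, 1 without cornea static 2 and 10 without cornea static 3. Against skin, Ube2c passed as well without cornea static 1, which made 2.

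The order of the tissues was kept under flow. Cornea under flow stood above skin under flow in 33 of 34 members with a median of 0.99, and 6 passed, against 0.813% of all genes called higher. They were Ube2c (1.88 ± 0.30, limma adjusted p = 0.0019), Cdca3 (1.43 ± 0.25, 0.0038), Cenpp (0.86 ± 0.15, 0.0047), Birc5 (1.28 ± 0.24, 0.0075), Cenpa (1.49 ± 0.32, 0.019) and Ccnb2 (1.49 ± 0.35, 0.038), all of them among the 16 of static medium. The 3 libraries of cornea lay above the 3 of skin for 30 members, against 5.96% of all genes. Without cornea static 1 the count was 12 and without cornea static 3 it was 10, since static libraries enter the shared estimate of the spread. It was 4 without cornea flow 2 or 3 or without skin flow 1 or 3. Over 26 alternatives Ccnb2 lost its call in 10 and Cenpa in 4, and the other 4 genes in 0. Tendon under flow was above skin in 34 members (median 0.44) and below cornea in 32 (median -0.58), with 0 called in either comparison (limma, unadjusted p below 0.05 for 5 and 12 members). Such an unadjusted p, in either direction, held for 6.62% and 9.40% of all genes. Of all genes 0.462% were called higher than in skin and 0.813% lower than in cornea. No overlap held for 9 members against skin (7% of all genes) and for 10 against cornea (6% of all genes). Without cornea static 1 the count against cornea was 1.

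The other genes of division were also compared between cornea and skin. In static medium 1 of 13 genes of Cdk1 control was called higher in cornea, as were 6 of 30 kinetochore and centromere genes, 1 of 25 of the checkpoint and anaphase promoting complex, 4 of 20 of condensin, cohesin and separase, 6 of 23 of the spindle, 1 of 8 of cytokinesis and 7 of 33 of S phase, and 0 genes of these lists were called lower. Of all genes 1.36% were called higher, and the number of all genes called higher ran from 111 to 278 with a library left out. Over the same refits the list counts ran from 2 to 11 for the kinetochore and from 2 to 10 for the spindle. They ran from 0 to 8 for condensin, cohesin and separase and from 2 to 7 for S phase. Tk1 was 1.88 ± 0.36 higher in static cornea (limma adjusted p = 0.0074), Shcbp1 1.51 ± 0.34 (0.023) and Cenpw 1.10 ± 0.21 (0.0084).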

How the data were processed

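Transcript levels were measured on both Affymetrix MOE430 chips in 18 libraries. The deposited values are log2 values made by the authors with RMA, per the submitters' processing notes. RMA adjusts for background, equalises the distributions of the arrays and combines the probes of a set. Its version is not given in the sources used here. The tables of the chips were fitted separately.

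Each of 18193 genes was given by 1 probe set with its symbol alone (no cross-hybridising probe set unless alone, chip A before chip B, then the highest mean). limma 3.58.1 in R 4.3.3 fitted 6 group means without covariates on every non-control probe set of a chip (12 residual degrees of freedom), and Benjamini-Hochberg adjustment ran over the genes of both chips at once, with calls at an adjusted p below 0.05. The fit without pairs was tested on simulated data with independent errors and average flow changes larger than that of any member. The paired fit was not tested in this way. Errors of differences are standard errors.

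The paired fit blocks on the libraries paired in the scan records by noted date or session. Deviations from group means, over all genes, correlated above 0.1 in all 8 pairs (0.38 to 0.76) and in 7 of 9 pairs of equal replicate number (-0.43 to 0.76). Skin static 2, whose scan record remarks on its concentration, was kept. The number of arrays limits the precision.

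Members, lists, motifs and tests were chosen with earlier results of these data known. Per-library values are given for members called for flow without pairs, the 3 largest average changes of each role and the 3 largest static differences. Of other genes, those called on average, up to 3 per list with the smallest p and those beside Cenpp could be named. Alternatives covered all probe sets, low values, centring, the prior, blocks, the beta-actin covariate (also in the paired fit) and each library left out.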

Additional observations from a re-analysis of the deposited data

How the results depend on the processing

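The count of 4 members called lower for flow on average stayed at 4 or 5 with each library left out and at 4 or 5 under the other settings, with the exception of the noted-date pairs (26), and of those pairs with the beta-actin covariate (18), a setting chosen after seeing the data. Those pairs also gave 9 in tendon (0 without pairs) and 3 in cornea (1 without), and with the covariate 10 in tendon, 4 in cornea and 2 in skin. The background moved too: of all 18193 genes 92 in tendon, 9 in cornea and 19 in skin were called lower with the pairs. With the covariate these were 250, 24 and 25. The corneal count was 0 with the replicate block, with the scan batch as a block and with the hybridisation run as a block, a block chosen after seeing the data, and 0 to 1 with a library left out. Counts of 0 in tendon and skin and for the difference of responses stayed at 0 with each library left out. With the replicate block the average count was 4. Replicate numbers were fitted as blocks shared by all tissues, so this fit did not pair libraries within a tissue. Libraries of equal number correlated above 0.1 in 7 of 9 cases, while cornea static 1 and 2 correlated below 0 with theirs. Apart from the corneal count, the replicate block changed no count of members by over 1.5 times. The noted dates pair libraries within a tissue and give no fit between tissues.

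Between static cornea and skin the count of 16 ranged from 6 to 27 with a library left out and from 13 to 21 otherwise. For tendon against skin the count of 1 ranged from 1 to 2, with 2 for the hybridisation run as a block, and for tendon against cornea the count of 2 ranged from 0 to 10. Under flow, cornea against skin (6) ranged from 4 to 12 and gave 11 with the hybridisation run as a block. Tendon against cornea (0) ranged from 0 to 1 and tendon against skin stayed at 0. The cause of these changes was not tested.

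Cenpp averaged -0.61 for flow, and its other probe set with a low signal gave 0.043. For static cornea against skin the other probe sets of Cdca3 (-0.052 and -0.16), Cenpf (-0.035 and -0.0031) and Cenpp (-0.13) had the opposite sign, and those of Cenpa, Bub1 and Nusap1 gave 0.015 to 0.15. Of the 74 member probe sets 69 were lower with flow and 60 higher in static cornea than in static skin. Over all genes, 163 were called for flow on average and 1273 with the noted-date pairs; 11 and 220 in tendon, and 4 and 60 in cornea.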

Other observations

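Genes that hold back or open the cell cycle before mitosis were measured beside the mitosis genes. Of 17 measured genes of cyclin-dependent kinase inhibitors and arrest 9 were lower under flow (median -0.02), and 1 fell, Cdkn2c, which encodes the inhibitor p18 of the G1 kinases (-0.34 ± 0.08, limma adjusted p = 0.046). Cdkn2c was itself 0.78 ± 0.13 higher in static cornea than in static skin (adjusted p = 0.0031). It was the 1 gene of these 17 called higher there, while 2 were called lower (247 and 202 of all 18193 genes). Of 9 cyclins and kinases of G1 7 were lower (median -0.08) with 0 called, and the lowest was Ccne2, a cyclin of the entry into S phase (-1.09 ± 0.31, adjusted p = 0.14). Of 19 genes of the MuvB, B-Myb and E2F regulators 13 were lower (median -0.09) with 0 called, among them E2f8 (-0.37 ± 0.14, adjusted p = 0.28) and E2f7 (-0.56 ± 0.27, 0.44), repressors of the E2F family. Whether these lists differ from the mitosis genes was not tested.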
